A study of Mus musculus with 12 samples.

Results

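The genes described here make the MHC class II antigen presentation machinery: the chains H2-Aa, H2-Ab1 and H2-Eb1, the invariant chain Cd74, the peptide exchange factors H2-DMa and H2-DMb1, their partner H2-Oa, and the transcriptional coactivator Ciita. They were chosen by name, and a gene was measured where a probe set listed it as its only gene symbol. This held for 7 of the 8 genes with 14 probe sets, out of 15858 genes on 28805 such probe sets and 32533 probe sets in all. H2-DMb1 was the exception, since both of its probe sets also listed H2-DMb2.

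Expression was measured on 12 Affymetrix mouse arrays, 3 in each of 4 groups. Every group consisted of C57BL6 bone marrow cells immortalised with HoxA9, a homeobox transcription factor, then transduced with a retrovirus and transplanted into irradiated syngeneic mice. The empty vector group carried the GFP marker alone. The IDH1wt group carried pSF91-IDH1wt-IRES-EGFP with the normal enzyme isocitrate dehydrogenase 1, and the IDH1mut group carried pSF91-IDH1mut-IRES-GFP with a mutant enzyme. Cancer-associated IDH1 mutants make the metabolite R-2-hydroxyglutarate (R-2HG). Mice of the R-2HG group bore cells with the empty vector and received this metabolite at 1 mg per day for 4 weeks. GFP-positive cells were sorted from the marrow after 4 weeks and yielded total RNA. GFP is the only sorting marker that the labels name, so no blood cell type was selected, and neither the mutation in IDH1 nor the number of founding clones is given. The labels of the R-2HG arrays disagree on the vector: the description gives IDH1mut, and title, source, construct and design text give the empty vector, which is taken as correct. Separate mice are not named for the replicates, so each p-value reflects only how much these samples spread, and that spread may be technical.

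MHC class II molecules are pairs of an alpha and a beta chain that display peptides from endocytosed proteins to CD4+ T cells. In the endoplasmic reticulum they are held by the invariant chain, and in endosomes the H2-DM pair removes its last fragment so that other peptides can bind, a step that the H2-O pair restrains. The genes are switched on together by Ciita, which binds no DNA itself but docks on a complex of RFX, CREB and NF-Y proteins at the X and Y boxes of their promoters. In the marrow they are typical of dendritic cells, B cells and macrophages.

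Promoter sequence was read from RefSeq windows of 300 bases on GRCm38.p6, from 250 bases before to 50 bases after each annotated start. The windows held 5 of the 8 genes: H2-Aa, H2-Eb1, H2-DMa, H2-DMb1 and H2-Oa. H2-Ab1, Ciita and Cd74 were not among them. Each window was searched on both strands for CNNGNAAC, a pattern of the X box, followed after 10 to 40 bases by GATTGG, the core of the Y box, both in the same orientation. The patterns do not overlap in a pair, and their letters were chosen with class II promoters in view. The stretches below are shown because they carry this arrangement in the class II genes with a window and in 2 neighbours, H2-Ob, which fell in the R-2HG group, and H2-Eb2, which did not. Capitals mark the X-like and then the Y-like letters, and each runs 5′ to 3′ along the gene.
H2-Aa, chr17:34287862-34287912, minus strand: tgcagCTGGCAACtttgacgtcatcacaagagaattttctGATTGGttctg
H2-Eb1, chr17:34305768-34305817, plus strand: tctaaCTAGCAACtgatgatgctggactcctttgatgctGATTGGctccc
H2-DMb1, chr17:34153089-34153139, plus strand: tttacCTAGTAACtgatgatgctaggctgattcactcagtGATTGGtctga
H2-Oa, chr17:34092295-34092345, plus strand: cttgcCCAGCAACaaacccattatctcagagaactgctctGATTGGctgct
H2-Ob, chr17:34238810-34238857, plus strand: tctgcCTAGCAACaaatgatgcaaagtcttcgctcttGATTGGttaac
H2-Eb2, chr17:34325535-34325584, plus strand: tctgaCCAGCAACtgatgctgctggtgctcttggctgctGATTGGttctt

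The pair was present in 4 of the 5 genes with a window, at 27 bases between the patterns in H2-Aa, H2-DMb1 and H2-Oa and 26 bases in H2-Eb1. Its X-like part lay 84 bases before the annotated start in H2-Aa, 94 in H2-Eb1, 97 in H2-DMb1 and 79 in H2-Oa. Among all 32851 windows 135 held the pair, or 0.411%, whereas CNNGNAAC alone was in 39.1% and GATTGG alone in 16.1%. Both H2-DMa windows lacked the pair, which says only that these letters are not in those windows. Of 3 further class II genes with a window, H2-Ob and H2-Eb2 held it and H2-DMb2 did not. A match is a description of the sequence and does not show that a factor binds there.

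Of the class II genes, 6 lay within 224.3 kb of chromosome 17 in the RefSeq annotation of assembly GRCm38.p6. From low to high coordinates these were H2-Oa (34092379 to 34095234), H2-DMa (34119693 to 34139101), H2-DMb1 (34153191 to 34160229), H2-Ab1 (34263227 to 34269418), H2-Aa (34282744 to 34287823) and H2-Eb1 (34305867 to 34316674). Ciita lay on chromosome 16 (10480014 to 10531064) and Cd74 on chromosome 18 (60803849 to 60812652). These coordinates span whole genes, introns included.

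All values below are log2 values that the authors centred for each probe set, so they are differences between arrays and carry no absolute level. A gene with several probe sets was given their mean. Whether the markers of a labelled cell type are present at all cannot be checked from such values. Group comparisons used limma over all 15858 genes and all 12 arrays, with Benjamini-Hochberg adjusted p-values and a threshold of 0.05. Errors beside log2 fold changes are standard errors of that fit with n = 3 per group unless an array is left out. Across the R-2HG group, replicate 3 stood apart from replicates 1 and 2, so the R-2HG results of the class II genes and the list counts against empty vector are given with and without it. That array was singled out by its values, so leaving it out narrows the spread of such genes by that choice. The p-values without it describe replicates 1 and 2 and are no support of their own. A second quantile normalization between arrays brought many R-2HG differences closer to 0. Its values are given for some, not all, of the results where they changed a call or a size by more than 1.5 times.

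**Figure D1:**
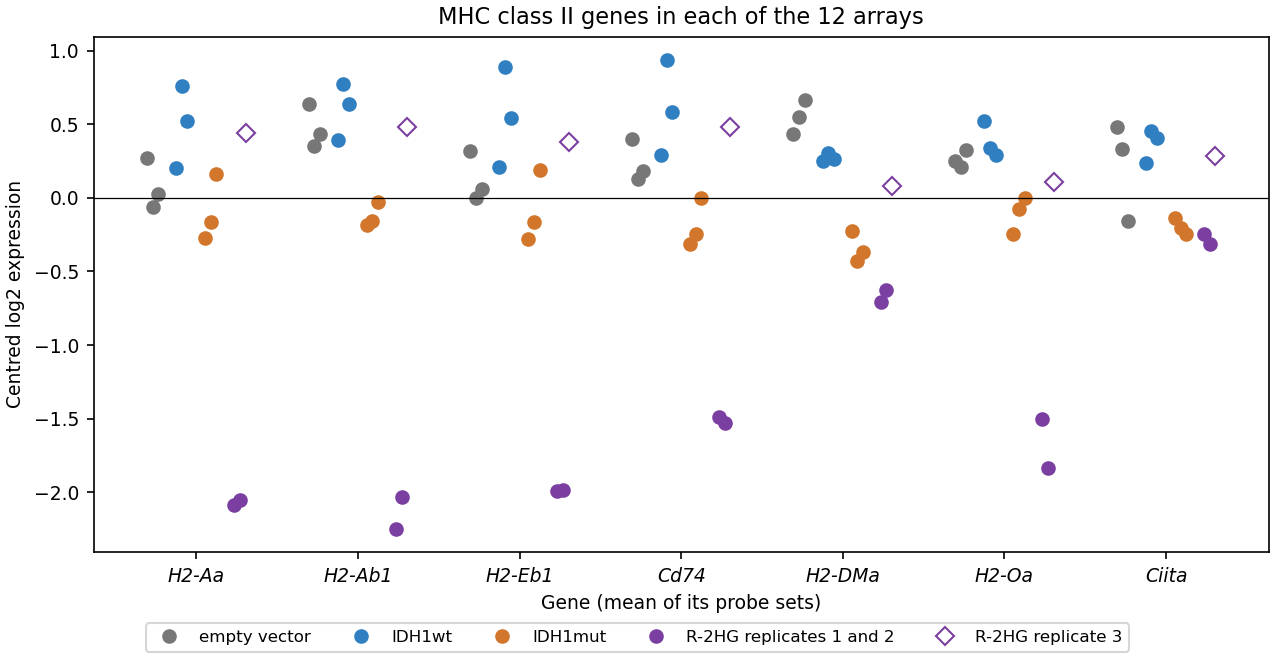
Centred log2 expression of the 7 measured class II genes on each of the 12 arrays, grouped as empty vector, IDH1wt, IDH1mut and R-2HG, with 1 point per array and an open diamond for R-2HG replicate 3. For H2-Aa, H2-Ab1, H2-Eb1, Cd74 and H2-Oa, R-2HG replicates 1 and 2 lie below -1.4 and replicate 3 lies among the other groups.

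The class II genes were lowest in R-2HG replicates 1 and 2. H2-Ab1, which encodes the beta chain of the H2-A molecule, was at -2.25 and -2.03 on these arrays and at 0.48 on replicate 3. Its values were 0.63, 0.35 and 0.43 with empty vector, 0.39, 0.77 and 0.64 with IDH1wt, and -0.18, -0.16 and -0.03 with IDH1mut. Thus the first 2 R-2HG arrays were below every other array, the IDH1mut arrays came next, and the IDH1wt and empty vector arrays overlapped. Against empty vector, H2-Ab1 fell by 1.74 ± 0.52 on the log2 scale with R-2HG (adjusted p = 0.0186, limma), and fell by 2.61 ± 0.12 without replicate 3 (adjusted p = 2.12e-07).

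H2-Aa encodes the alpha chain that pairs with H2-Ab1. It was at -2.08 and -2.05 on R-2HG replicates 1 and 2 and at 0.44 on replicate 3. Empty vector arrays had 0.27, -0.06 and 0.02, IDH1wt arrays 0.20, 0.76 and 0.52, and IDH1mut arrays -0.28, -0.17 and 0.16. Here IDH1mut overlapped with empty vector, and R-2HG replicate 3 was exceeded only by IDH1wt replicates 2 and 3. The log2 difference between R-2HG and empty vector was -1.31 ± 0.50 and did not pass (adjusted p = 0.0551, limma), and without replicate 3 H2-Aa fell by 2.15 ± 0.17 (adjusted p = 4.18e-06).

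H2-Eb1 encodes the beta chain of the H2-E molecule, which C57BL6 mice do not assemble because they make no H2-E alpha chain. It had -1.99 and -1.99 on R-2HG replicates 1 and 2 and 0.38 on replicate 3. Empty vector arrays had 0.31, 0.00 and 0.06, IDH1wt arrays 0.21, 0.89 and 0.54, and IDH1mut arrays -0.28, -0.16 and 0.19. Its order of arrays was nearly that of H2-Aa. H2-Eb1 fell by 1.32 ± 0.48 in the R-2HG group (adjusted p = 0.0457, limma) and fell by 2.11 ± 0.18 without replicate 3 (adjusted p = 9.26e-06). After a second quantile normalization the H2-Eb1 difference was -0.59 ± 0.33 and did not pass (adjusted p = 0.178).

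Cd74, the invariant chain that guides class II molecules to endosomes, read -1.49, -1.53 and 0.48 on the R-2HG arrays. Empty vector arrays had 0.40, 0.13 and 0.18, IDH1wt arrays 0.29, 0.93 and 0.58, and IDH1mut arrays -0.32, -0.25 and 0.00. All IDH1mut arrays were below all empty vector arrays for this gene, and R-2HG replicate 3 was above them. The R-2HG difference of -1.08 ± 0.41 did not pass (adjusted p = 0.052, limma), and Cd74 fell by 1.75 ± 0.16 without replicate 3 (adjusted p = 1.4e-05).

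H2-Oa encodes the alpha chain of H2-O, the inhibitor of H2-DM that is found mainly in B cells and some dendritic cells. Its R-2HG values were -1.50, -1.84 and 0.11, below all empty vector arrays (0.25, 0.21 and 0.33) and all IDH1wt arrays (0.52, 0.34 and 0.29). The IDH1mut arrays had -0.25, -0.08 and 0.00. H2-Oa fell by 1.34 ± 0.36 with R-2HG (adjusted p = 0.0111, limma) and fell by 1.93 ± 0.11 without replicate 3 (adjusted p = 9.54e-07).

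H2-DMa encodes the alpha chain of the peptide exchange factor H2-DM. Its R-2HG arrays had -0.71, -0.63 and 0.08, against 0.43, 0.55 and 0.66 with empty vector and 0.25, 0.30 and 0.27 with IDH1wt. The IDH1mut arrays had -0.23, -0.43 and -0.37. Like H2-Oa, H2-DMa was lower than every empty vector array on all R-2HG arrays, replicate 3 included, and on all IDH1mut arrays. H2-Aa, H2-Ab1, H2-Eb1 and Cd74 overlapped with empty vector on replicate 3. It fell by 0.97 ± 0.16 with R-2HG (adjusted p = 0.000866, limma) and fell by 1.22 ± 0.09 without replicate 3 (adjusted p = 2.94e-06).

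Ciita, the coactivator on which the other class II genes depend, varied least. Its R-2HG arrays had -0.25, -0.31 and 0.28, its empty vector arrays 0.48, 0.33 and -0.16, its IDH1wt arrays 0.24, 0.45 and 0.41, and its IDH1mut arrays -0.13, -0.20 and -0.25. Empty vector replicate 3 thus lay near the IDH1mut arrays. The R-2HG difference of -0.31 ± 0.17 did not pass (adjusted p = 0.168, limma), and without replicate 3 Ciita fell by 0.50 ± 0.15 (adjusted p = 0.0199). Its SD over the 12 arrays was 0.31, against 0.47 for H2-DMa and 0.75 to 1.01 for the other 5 genes.

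H2-DMb1, the beta chain of H2-DM, shares its probe sets with the close paralog H2-DMb2 and was not tested. Probe set 1418638_at read 0.25, 0.43 and 0.18 with empty vector, 0.00, 0.63 and 0.57 with IDH1wt, -0.11, -0.42 and -0.34 with IDH1mut, and -0.68, -0.61 and 0.13 with R-2HG. Probe set 1449580_s_at read 0.43, 0.47 and 0.48, then 0.30, 0.41 and 0.33, then -0.08, -0.28 and -0.33, and then -0.53, -0.58 and 0.03 in the same order. On both probe sets all IDH1mut and all R-2HG arrays were below all empty vector arrays. Among all genes this held for 23.7% with IDH1mut and for 29.8% with R-2HG. The probe set that listed only H2-DMb2 had -0.08, -0.11 and 0.31 with R-2HG and -0.11, 0.35 and 0.14 with empty vector.

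Of the 7 measured genes 4 fell with R-2HG against empty vector, namely H2-Ab1, H2-Eb1, H2-DMa and H2-Oa, and 0 rose. Of all genes 24.3% fell in this comparison by the same test, and the median log2 difference was -1.31 over the 7 genes and 0.00 over all genes. The R-2HG and empty vector arrays did not overlap for H2-DMa and H2-Oa, where R-2HG was lower, as for 29.8% of all genes. Without R-2HG replicate 3 all 7 genes fell, and 25.5% of all genes did. The count was 2 without empty vector replicate 1, 1 without R-2HG replicate 1 and 2 without R-2HG replicate 2. Those fits called 5911, 4636 and 4588 of all genes in either direction, against 6471 in the fit of all arrays. With replicate 3 as the sole R-2HG array, assumed to vary like the other groups, only H2-DMa fell, by 0.47 ± 0.12 (adjusted p = 0.0319, limma), against 8.09% of all genes. After a second quantile normalization 3 of 7 fell, beside 20.5% of all genes: H2-Ab1 fell by 0.95 ± 0.34 (adjusted p = 0.0442, limma), H2-DMa fell by 0.81 ± 0.13 (adjusted p = 0.000606) and H2-Oa fell by 0.76 ± 0.20 (adjusted p = 0.0123). H2-Aa and Cd74 then both differed by -0.53 (adjusted p = 0.232 and 0.197), and the median over the 7 genes was -0.59. Fewer class II expressing cells in the sorted population and less class II RNA per cell cannot be told apart in such bulk samples.

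**Figure D2:**
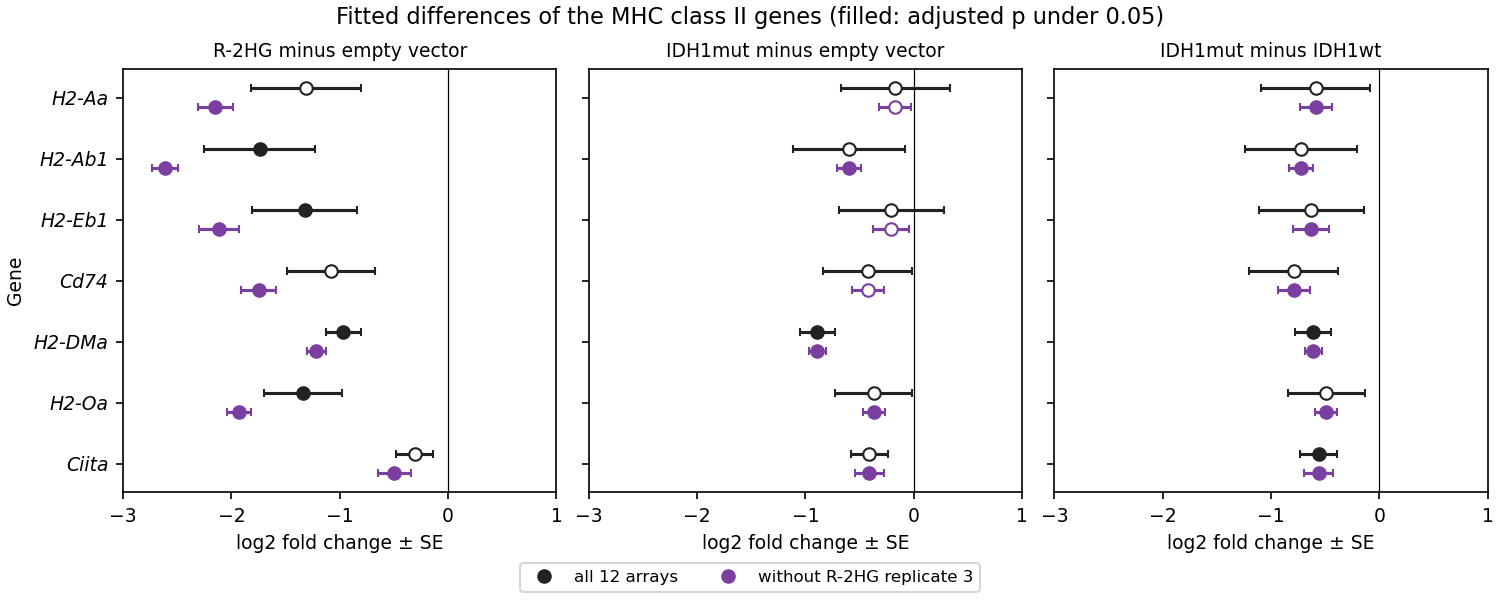
Log2 differences of the 7 class II genes for R-2HG and IDH1mut against empty vector and IDH1mut against IDH1wt, from all 12 arrays (black) and without R-2HG replicate 3 (purple), with standard errors as bars and filled points at an adjusted p under 0.05. All 7 genes are further below 0 for R-2HG without replicate 3, and the IDH1mut differences stay in place with shorter bars.

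The gap inside the R-2HG group was measured directly. The mean of replicates 1 and 2 minus replicate 3 was -2.62 for H2-Ab1, -2.51 for H2-Aa, -2.37 for H2-Eb1, -1.99 for Cd74, -1.78 for H2-Oa, -0.75 for H2-DMa and -0.56 for Ciita. For 5 of the 7 genes both replicates lay more than 1 log2 unit below replicate 3, which held for 203 of all genes (1.28%). A gap of that size in the other direction was found in 23 genes (0.145%), none of them class II members. Among the 12 arrays, replicate 3 ranked 3rd from the highest for H2-Aa, H2-Eb1 and Cd74, 4th for H2-Ab1, 5th for Ciita and 7th for H2-DMa and H2-Oa.

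Probe sets of the same gene were close for H2-Aa and H2-Ab1 and differed for H2-DMa and Ciita. The 4 probe sets of H2-Aa had -1.93 to -2.33 on R-2HG replicate 1 and 0.32 to 0.58 on replicate 3, and the 3 of H2-Ab1 had -1.97 to -2.49 and 0.34 to 0.58. The pair for H2-DMa differed more, with 0.65 and -0.15 on IDH1wt replicate 1 from 1422527_at and 1459872_x_at. The pair for Ciita disagreed on empty vector replicate 3, with -0.52 from 1421210_at and 0.20 from 1421211_a_at. Probe sets with the ending x_at or s_at can bind related transcripts, and class II chains are similar in sequence, so the share of each chain in such values is uncertain.

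**Figure D3:**
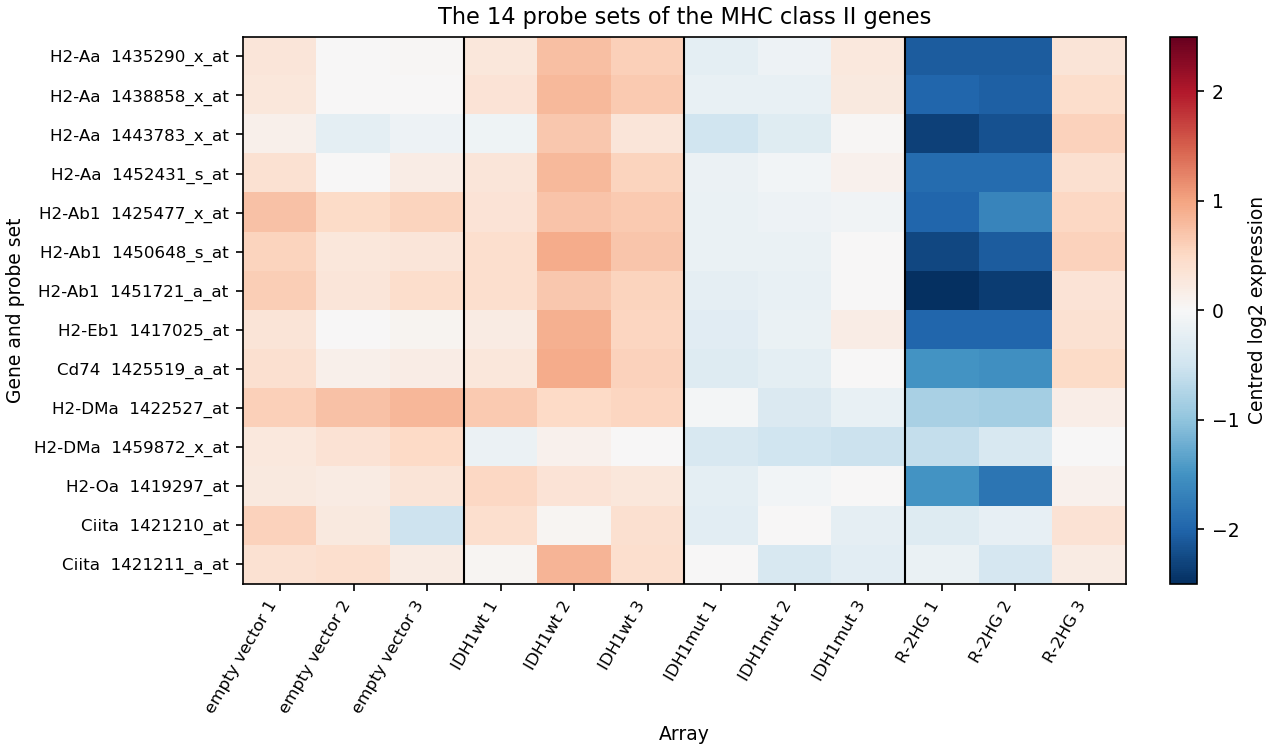
Centred log2 values of each of the 14 class II probe sets on the 12 arrays, with 1 row per probe set and colour from low to high. R-2HG replicates 1 and 2 are the lowest arrays in all probe sets of H2-Aa, H2-Ab1, H2-Eb1, Cd74 and H2-Oa and in 1422527_at of H2-DMa, but not in 1459872_x_at, where replicate 2 (-0.41) lies above IDH1mut replicates 2 and 3.

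With IDH1mut the differences of all 7 genes from empty vector were below 0, and each was smaller than that of R-2HG replicates 1 and 2. In the fit of all 12 arrays, 1 of 7 genes fell against empty vector, beside 12.1% of all genes. This was H2-DMa, which fell by 0.89 ± 0.16 (adjusted p = 0.0024, limma). H2-Ab1 differed by -0.60 ± 0.52 (adjusted p = 0.454), and Ciita by -0.41 ± 0.17 (adjusted p = 0.108). Differences for the remaining 4 genes ran from -0.42 for Cd74 to -0.17 for H2-Aa. The IDH1mut and empty vector arrays did not overlap for H2-Ab1, H2-DMa, Cd74 and H2-Oa, with IDH1mut lower, as for 23.7% of all genes. The count of genes that fell was 2 without empty vector replicate 3, and 4 without R-2HG replicate 3, beside 14.1% of all genes. Without empty vector replicate 3, 2427 of all genes passed in either direction, against 3579 in the fit of all 12 arrays.

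The fit of all arrays uses a spread that includes the gap inside the R-2HG group, so these comparisons were repeated on the 9 arrays outside that group, a choice made after the values were seen. H2-Ab1 then fell by 0.60 ± 0.11 with IDH1mut against empty vector (adjusted p = 0.0035, limma). H2-DMa fell by 0.89 ± 0.08 (adjusted p = 9.78e-05) and H2-Oa fell by 0.37 ± 0.09 (adjusted p = 0.0143), which made 3 of 7 against 12.6% of all genes. Cd74 (adjusted p = 0.0701), Ciita (0.0604), H2-Eb1 (0.428) and H2-Aa (0.476) did not pass. When each of the 9 arrays was left out in turn, H2-Ab1 and H2-DMa passed in 9 of 9 fits, H2-Oa in 8, Cd74 in 2, Ciita in 1, and H2-Aa and H2-Eb1 in 0.

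Against IDH1wt, all 7 genes were lower on every IDH1mut array than on every IDH1wt array, which was true of 16.9% of all genes. By limma on the 12 arrays 2 of 7 fell, beside 7.29% of all genes: H2-DMa fell by 0.61 ± 0.16 (adjusted p = 0.0259) and Ciita fell by 0.56 ± 0.17 (adjusted p = 0.0443). The count was 0 when IDH1wt replicate 1, 2 or 3 or IDH1mut replicate 2 or 3 was left out. These fits called 1721, 2135, 1568, 1636 and 1916 of all genes in either direction, against 2484 in the fit of 12 arrays. The class II count was 1 without empty vector replicate 2, IDH1mut replicate 1 or R-2HG replicate 1, where 2187, 2100 and 2263 of all genes passed. It was 7 without R-2HG replicate 3, where 9.38% of all genes fell. On the 9 arrays without the R-2HG group all 7 fell, against 7.98% of all genes. Cd74 then fell by 0.79 ± 0.15 (adjusted p = 0.00661), H2-Ab1 fell by 0.72 ± 0.11 (adjusted p = 0.00216) and H2-Oa fell by 0.49 ± 0.09 (adjusted p = 0.00517). H2-Ab1, H2-DMa, Cd74 and H2-Oa passed in 9 of 9 fits with 1 array left out, and H2-Aa, H2-Eb1 and Ciita in 5 of 9.

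Wild-type IDH1 gave no call. Of the 7 genes 0 passed against empty vector by limma, beside 1.35% of all genes, and 0 had an unadjusted p under 0.05 (lowest 0.118), beside 16.2% of all genes. On the 9 arrays the count was again 0, with the lowest adjusted p at 0.135 for H2-DMa. The differences ran from -0.28 ± 0.16 for H2-DMa (adjusted p = 0.434) to 0.42 ± 0.48 for H2-Eb1 (adjusted p = 0.715). H2-DMa was also the gene whose arrays did not overlap, with IDH1wt lower, which was so for 13.6% of all genes. IDH1wt replicate 2 had the highest values of all arrays for H2-Aa (0.76), H2-Eb1 (0.89), Cd74 (0.93) and H2-Ab1 (0.77).

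Between R-2HG and IDH1wt all 7 genes fell in the fit of 12 arrays, where 44.4% of all genes passed in either direction. Of the genes that passed, 51.8% were lower with R-2HG. The R-2HG arrays lay below all IDH1wt arrays for H2-DMa and H2-Oa, as for 27.0% of all genes. The log2 differences ran from -1.87 ± 0.52 for H2-Ab1 (adjusted p = 0.0126, limma) to -0.46 ± 0.17 for Ciita (adjusted p = 0.0464). The count was 4 without IDH1wt replicate 2, 2 without R-2HG replicate 1, 2 without R-2HG replicate 2, and 0 with replicate 3 as the sole R-2HG array, where 6.47% of all genes fell. Genes called in either direction were 5884, 5103 and 4869 without IDH1wt replicate 2, R-2HG replicate 1 and R-2HG replicate 2. Without R-2HG replicate 3 all 7 class II genes fell, beside 24.4% of all genes. Their differences ran from -2.74 ± 0.12 for H2-Ab1 (adjusted p = 1.08e-07, limma) to -0.64 ± 0.15 for Ciita (adjusted p = 0.00496). After a second quantile normalization 6 of 7 fell, beside 20.7% of all genes, with -1.10 for H2-Ab1, and Ciita did not pass (adjusted p = 0.0954). This comparison and that against empty vector share the R-2HG arrays, so they are not separate evidence.

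Between IDH1mut and R-2HG 0 of 7 genes passed by limma on the 12 arrays, beside 36.0% of all genes, and 4 had an unadjusted p under 0.05, beside 47.7% of all genes. The differences were 1.14 ± 0.50 for H2-Aa (adjusted p = 0.094) and 0.97 ± 0.36 for H2-Oa (adjusted p = 0.0516), and -0.10 ± 0.17 for Ciita (adjusted p = 0.656). Without R-2HG replicate 3, 6 of 7 were higher with IDH1mut, beside 22.5% of all genes, from 2.02 ± 0.12 for H2-Ab1 (adjusted p = 1.6e-06) to 0.33 ± 0.09 for H2-DMa (adjusted p = 0.0128), and Ciita did not pass (adjusted p = 0.675). H2-DMa was thus the gene with the smallest passing difference between mutant IDH1 and those R-2HG arrays. After a second quantile normalization the differences were 0.35 for H2-Aa and 0.38 for H2-Oa, that of H2-DMa turned to -0.15, and again 0 passed. With replicate 3 alone, all 7 differences were below 0, from -0.67 for Cd74 to -0.22 for H2-Oa, and 0 passed, where 0.687% of all genes were lower with IDH1mut.

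The genes did not all vary together to the same degree. Over the 12 arrays Pearson correlations between the 21 pairs of genes ran from 0.648 for Ciita with H2-Oa to 0.999 for H2-Aa with H2-Eb1. On the 9 arrays outside the R-2HG group H2-Aa and H2-Eb1 still correlated at 0.996, and Cd74 with them at 0.956 and 0.965. H2-DMa correlated with H2-Aa at 0.718 on the 12 arrays and 0.341 on the 9. Arrays of a group share their treatment, so these values describe the arrays and carry no test.

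The transcription factors that bind class II promoters with Ciita moved by small amounts. Rfx5, the RFX subunit that contacts the X box, passed in none of the 6 comparisons, and its R-2HG difference from empty vector was -0.01 without replicate 3. Rfxap, another RFX subunit, had -0.17, -0.16 and -0.15 on the R-2HG arrays and 0.03, 0.16 and 0.17 with empty vector. It fell by 0.28 ± 0.07 (adjusted p = 0.00855, limma), with replicate 3 no different from the others. Nfyc, a subunit of NF-Y, fell by 0.19 (adjusted p = 0.0272) and Creb1 fell by 0.22 (adjusted p = 0.0309) with R-2HG, and Nfyb rose by 0.32 with IDH1mut (adjusted p = 0.00454). Without R-2HG replicate 3 Rfxap, Nfyc and Creb1 passed again, and after a second quantile normalization Nfyc (adjusted p = 0.128) and Creb1 (adjusted p = 0.0648) did not.

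Other genes of class II presentation were read from a list of 33 measured genes. With R-2HG 6 fell and 5 rose against empty vector, where 24.3% of all genes fell and 16.5% rose, and the median difference was -0.09. Without replicate 3 the counts were 7 and 5, and after a second quantile normalization 2 and 7. Ctss, the protease that trims the invariant chain, rose by 0.36 (adjusted p = 0.0122, limma), and so did the class II gene H2-Eb2, by 0.36 (adjusted p = 0.0239), although H2-Eb2 did not pass without replicate 3 (adjusted p = 0.0619). H2-Ob, the beta chain of H2-O, had -2.84, -2.46 and 0.20 on the R-2HG arrays and -0.24, 0.28 and 0.00 with empty vector. It fell by 1.71 ± 0.59 (adjusted p = 0.0366) and fell by 2.66 ± 0.25 without replicate 3 (adjusted p = 1.49e-05). After a second quantile normalization the H2-Ob difference was -0.67 and did not pass (adjusted p = 0.154).

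With IDH1mut 2 genes of that list fell and 8 rose against empty vector, beside 12.1% and 10.5% of all genes, and the median was 0.11. Without R-2HG replicate 3 the counts were 2 and 10, where 14.1% of all genes fell. After a second quantile normalization they were 2 and 9, beside 12.2% and 12.9% of all genes. Among the genes of the list, the lysosomal metal transporter Slc11a1 rose by 1.33 (adjusted p = 1.11e-05, limma) and the asparaginyl endopeptidase Lgmn rose by 1.03 (adjusted p = 0.00491). Lgmn had 1.04, 0.74 and 1.03 with IDH1mut and 0.32, -0.24 and -0.36 with empty vector. Jak1, a kinase of the interferon gamma receptor that induces Ciita, rose by 0.55 (adjusted p = 0.00114), and the receptor chain Ifngr1 fell by 0.32 (adjusted p = 0.0301). With IDH1wt 1 gene of the list rose, Slc11a1 by 0.65 (adjusted p = 0.00795), and 0 fell.

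MHC class I presentation, which serves CD8+ T cells, was read from 17 measured genes. With R-2HG 12 fell and 1 rose against empty vector, beside 24.3% and 16.5% of all genes, with a median of -0.28, and the counts were the same without replicate 3. Erap1, the peptidase that trims class I peptides, fell by 0.62 (adjusted p = 0.000149, limma), the chaperone Calr fell by 0.53 (adjusted p = 0.000227), and the heavy chain H2-D1 rose by 0.35 (adjusted p = 0.0012). With IDH1mut 7 fell and 0 rose, beside 12.1% and 10.5% of all genes, with a median of -0.15. Without R-2HG replicate 3 the counts were 8 and 0, where 14.1% of all genes fell. Tap2, a subunit of the peptide transporter, fell by 0.97 (adjusted p = 0.000575), and the immunoproteasome subunit Psmb10 fell by 0.73 (adjusted p = 0.000805).

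Genes that lie between the class II genes on chromosome 17 allow a comparison by position. The stretch from H2-Oa to H2-Eb1 held 15 RefSeq genes, of which 12 were measured, 5 of them class II members and 7 others. On R-2HG replicates 1 and 2, the mean differences from empty vector were -1.93 for H2-Oa, -1.22 for H2-DMa, -2.61 for H2-Ab1, -2.15 for H2-Aa and -2.11 for H2-Eb1. Between them Brd2 was at -0.07, H2-DMb2 at -0.22, Psmb9 at -0.25, Tap1 at -0.46, Psmb8 at -0.33, Tap2 at -0.64 and H2-Ob at -2.66. On all 12 arrays Tap1 (adjusted p = 0.0173, limma), Psmb8 (0.0236), Tap2 (0.0117) and H2-Ob (0.0366) fell with R-2HG, beside 24.3% of all genes. Brd2, H2-DMb2 and Psmb9 did not pass. With IDH1mut the value furthest from 0 in the stretch was -0.97 for Tap2, followed by -0.89 for H2-DMa. Of the genes outside the members, Brd2 (adjusted p = 0.0307, limma), Psmb8 (0.00173) and Tap2 (0.000575) fell with IDH1mut, beside 12.1% of all genes. The part of position in these differences was not tested. Brd2 overlaps the annotated start of H2-DMa.

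**Figure D4:**
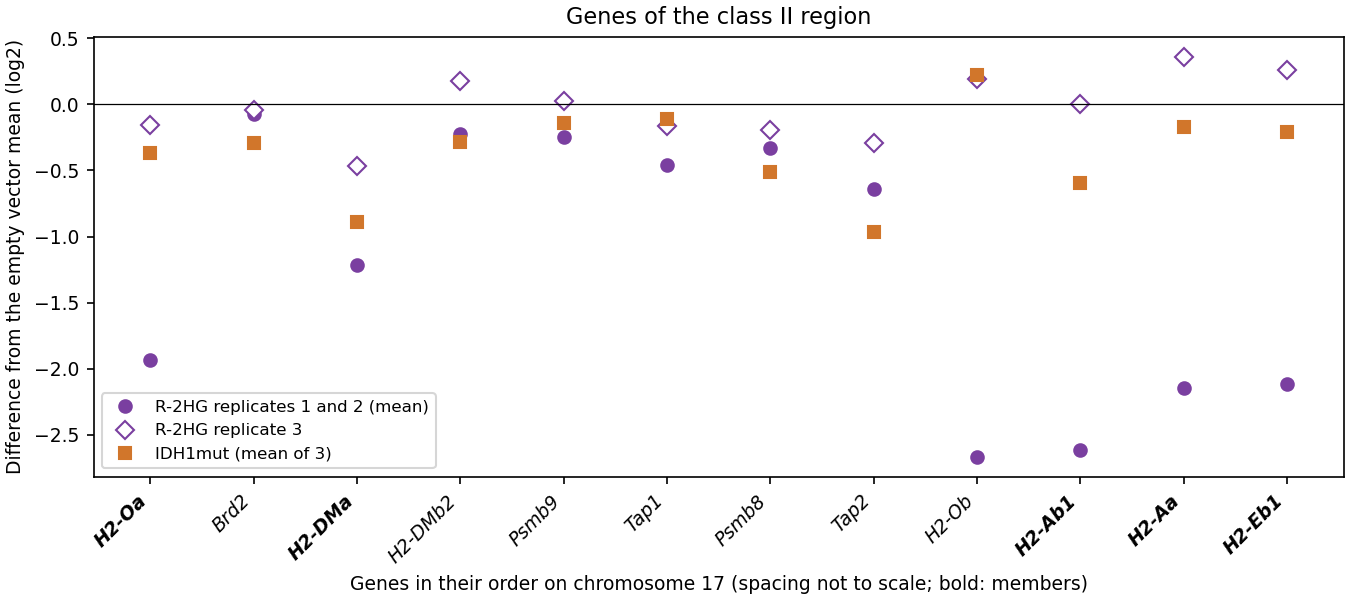
Log2 differences from the empty vector mean for the 12 measured genes from H2-Oa to H2-Eb1, in their order along the chromosome, for R-2HG replicates 1 and 2, R-2HG replicate 3 and IDH1mut. H2-Oa, H2-DMa, H2-Ob, H2-Ab1, H2-Aa and H2-Eb1 lie at or below -1.22 on R-2HG replicates 1 and 2, and the 6 other genes lie between -0.64 and -0.07.

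Markers of cell types that carry class II molecules were read on the same arrays. B cell markers (19 measured) had list medians of -0.40 and -0.39 on R-2HG replicates 1 and 2 and 0.01 on replicate 3, against 0.00 to 1.04 with empty vector, -0.32 to 0.50 with IDH1wt and 0.26 to 0.77 with IDH1mut. With R-2HG 4 fell and 1 rose against empty vector, beside 24.3% and 16.5% of all genes. The counts were 7 and 1 without replicate 3, where 25.5% of all genes fell, and 2 and 2 after a second quantile normalization. Blnk, a B cell receptor adaptor, fell by 1.45 (adjusted p = 0.0135, limma) and the receptor chain Cd79b fell by 1.38 (adjusted p = 0.0366), though Cd79b did not pass after that normalization (adjusted p = 0.106). Bank1 rose by 0.73 (adjusted p = 0.000573, limma). The defining markers Cd79a (-0.46, adjusted p = 0.337) and Pax5 (0.06, adjusted p = 0.746) did not pass. Ms4a1, which encodes CD20, read -0.63, -0.79 and 2.00 on the R-2HG arrays. With IDH1mut 0 B cell markers fell and 5 rose against empty vector, beside 12.1% and 10.5% of all genes.

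Dendritic cell markers (18 measured) had medians of -0.21, -0.21 and 0.07 on the R-2HG arrays, -0.06 to 0.03 with empty vector, 0.00 to 0.20 with IDH1wt and 0.15 to 0.20 with IDH1mut. With R-2HG 4 fell and 2 rose against empty vector, beside 24.3% and 16.5% of all genes. The counts were 6 and 2 without replicate 3, where 25.5% of all genes fell, and 2 and 2 after a second quantile normalization. Cd209a, a lectin of monocyte-derived dendritic cells, fell by 2.09 (adjusted p = 0.00669, limma) and fell by 1.02 after that normalization (adjusted p = 0.00317), and Tcf4, which specifies plasmacytoid dendritic cells, fell by 1.14 (adjusted p = 0.0025). Id2 rose by 0.66 (adjusted p = 0.00227, limma) and Naaa rose by 0.46 (adjusted p = 0.0139). Siglech, at 0.105, did not pass (adjusted p = 0.557). Itgax, which encodes CD11c, read -0.81, -1.07 and 0.59 with R-2HG and 0.79, 0.39 and 0.55 with IDH1mut. With IDH1mut 1 marker fell and 4 rose against empty vector, beside 12.1% and 10.5% of all genes. The counts were 3 and 5 without R-2HG replicate 3, and 3 and 4 after that normalization. Mgl2 fell by 0.58 (adjusted p = 0.00748, limma) and Flt3 rose by 0.79 (adjusted p = 0.0302). Cd209a did not pass on all 12 arrays. It fell by 0.89 without R-2HG replicate 3 (adjusted p = 0.000165) and by 1.12 after that normalization (adjusted p = 0.00229). Tcf4 fell by 0.67 after that normalization (adjusted p = 0.0106).

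Monocyte and macrophage markers (16 measured) had medians of -0.29, -0.28 and 0.01 on the R-2HG arrays, -0.01 to 0.12 with empty vector, 0.12 to 0.34 with IDH1wt and -0.25 to 0.13 with IDH1mut. Against empty vector, with the shares of all genes as above, 6 fell and 0 rose with R-2HG (9 and 1 without replicate 3), and 6 fell and 1 rose with IDH1mut (6 and 3 without that array). The endotoxin receptor gene Cd14 fell by 1.23 with R-2HG (adjusted p = 0.000345, limma) and fell by 1.43 with IDH1mut (adjusted p = 0.000191). Irf8, a regulator of monocyte and dendritic cell fate, fell by 0.59 (adjusted p = 0.00853) with R-2HG and fell by 0.86 with IDH1mut (adjusted p = 0.00165).

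Among the marker lists the gap inside the R-2HG group was widest in another lineage. Eosinophil, basophil and mast cell markers (15 measured) had medians of -1.35, -1.40 and 0.10 on the R-2HG arrays, 0.03 to 0.04 with empty vector, 0.00 to 0.42 with IDH1wt and -0.44 to -0.03 with IDH1mut. With R-2HG 7 fell and 1 rose against empty vector (10 and 1 without replicate 3), and with IDH1mut 3 fell and 0 rose (6 and 1 without that array, and 5 and 0 after a second quantile normalization). The shares of all genes are those given above. T and NK cell markers (11 measured) had medians of 0.00 to 0.10 with R-2HG and -0.03 to 0.02 with empty vector, with 4 that fell and 2 that rose. Since the values are centred, no marker can be said to be absent. The part of any of these cell types in the class II differences was not tested.

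**Figure D5:**
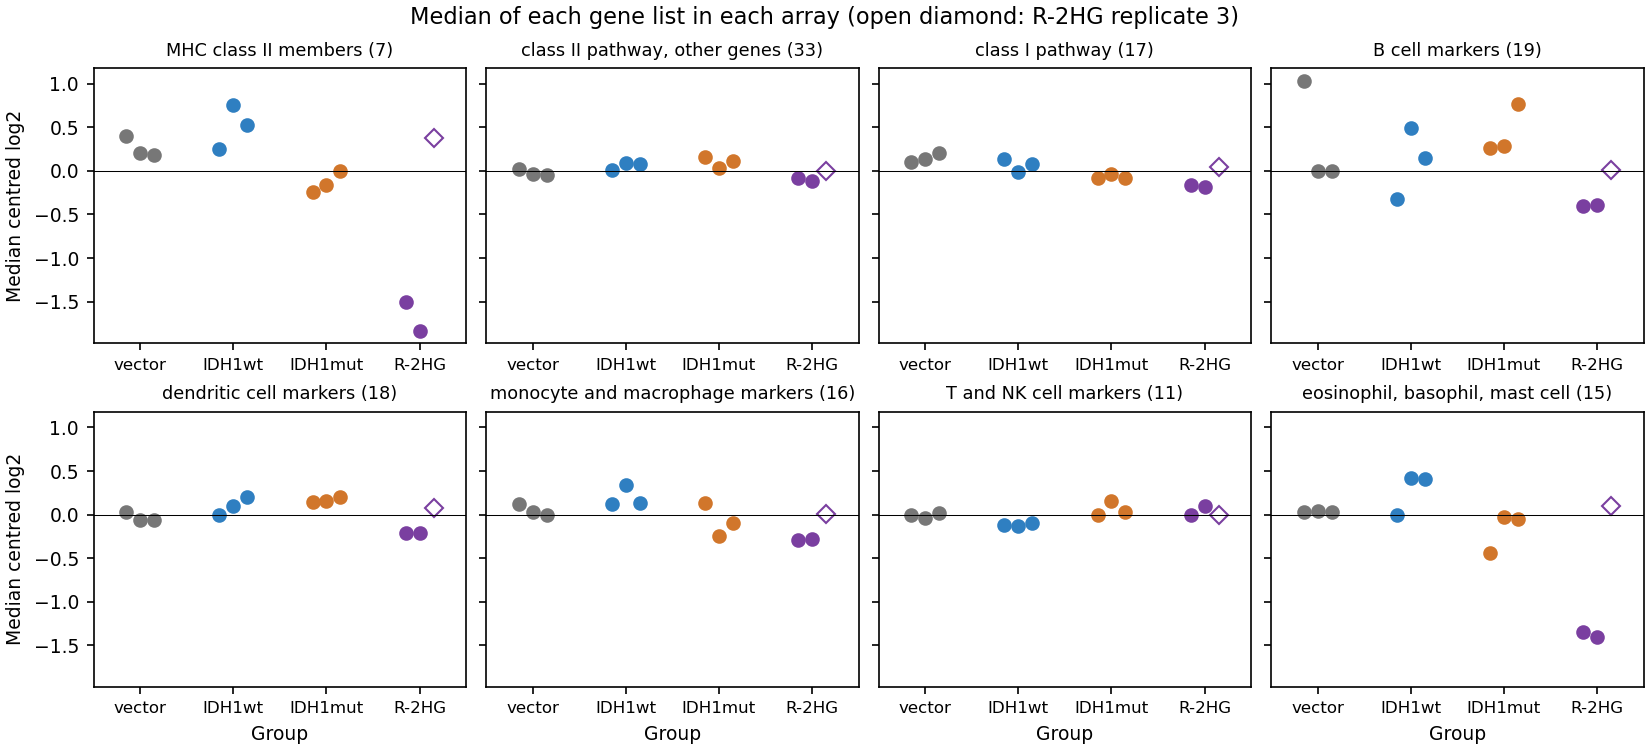
Median centred log2 value on each of the 12 arrays for the class II genes and the lists of pathway genes and cell type markers, with the number of measured genes in brackets and R-2HG replicate 3 as an open diamond. The class II genes (-1.50 and -1.84) and the eosinophil, basophil and mast cell markers (-1.35 and -1.40) have the lowest medians, both on R-2HG replicates 1 and 2.

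The genes whose pattern over the 12 arrays was most like the mean of the class II genes were sought among 7206 genes with an SD at or above the median. Csf2rb2, a beta chain of the interleukin 3 receptor, came first with a Pearson correlation of 0.99, and it kept 0.963 on the 9 arrays without R-2HG. It read -1.68, -1.60 and 0.27 with R-2HG, -0.63, -0.32 and -0.39 with IDH1mut, 0.09, 0.39 and 0.28 with IDH1wt and 0.16, 0.10 and 0.00 with empty vector. The lectin genes Clec4b1 (0.985) and Cd209a (0.976) and the IgE receptor chain Fcer1a (0.973) followed. Then came Pdzd4 (0.972), Pank1 (0.969), Itgb3 (0.968), Hgf (0.968), Cnn3 (0.966) and Cst7 (0.966). On the 9 arrays the correlations of the genes after Csf2rb2 were lower, from 0.795 for Fcer1a to 0.941 for Clec4b1. Fcer1a, Cd209a, Cnn3 and Cst7 each had a wider range than any class II gene. The R-2HG arrays had -4.17, -3.93 and 0.70 for Fcer1a and -2.94, -2.86 and -0.34 for Cd209a. They had -4.09, -4.16 and -0.13 for Cnn3 and -4.77, -5.05 and -0.41 for Cst7.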

How the data were processed

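Biotin-labelled total RNA of 12 samples was hybridised to 12 Affymetrix arrays. The authors deposited log2 values from RMA, a method named without a version in the submitters' processing notes. They are centred per probe set (83.6% of probe sets hold an exact 0), against a reference that is not given in the sources used here, and every array's median is 0. No batch is named in the labels, and the array's control probe sets were not used here.

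Probe sets were named from the platform annotation: 28805 had 1 symbol, 757 several and 2971 none. Of the first, 28674 matched RefSeq, and 0 symbols changed. Probe sets of a gene were averaged. The 4 group means of each gene were estimated in limma 3.58.1 under R 4.3.3 with lmFit and eBayes (8 residual and 3.96 prior degrees of freedom), two-sided, with Benjamini-Hochberg adjustment over 15858 genes. The fit was tested on simulated data. Alternatives were a second quantile normalization, single probe sets, array weights, a replicate block, each array left out, and R-2HG replicate 3 alone. A planned filter on level was replaced by one on SD (lowest 30% left out), since centred values carry no level. Fits on 9 arrays, list counts without R-2HG replicate 3 or after a second quantile normalization, the promoter search and the values by position were added after seeing the data. The genes and lists were chosen with earlier results of these data known.

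All class II genes are named. Other genes named are, of each list, up to 4 per direction with the smallest p, a set of defining markers and class II regulators, the 10 most similar genes and the genes between H2-Oa and H2-Eb1. Creb1 was chosen after its values were seen. Figures were drawn with matplotlib 3.10.9.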

Additional observations from a re-analysis of the deposited data

How the results depend on the processing

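The choice with most effect was R-2HG replicate 3. With it as the sole R-2HG array, the differences from empty vector turned positive for H2-Aa (0.36), H2-Ab1 (0.0042), H2-Eb1 (0.26), Cd74 (0.25) and Ciita (0.068), without a call. Those of IDH1mut from R-2HG turned negative for H2-Aa (-0.53), H2-Ab1 (-0.60), H2-Eb1 (-0.47), Cd74 (-0.67), H2-DMa (-0.42) and H2-Oa (-0.22), without a call. A group of 1 array adds nothing to the spread, so comparisons among the other groups were then those of the 9 arrays by construction. Class II genes called on the 9 arrays were 3 for IDH1mut against empty vector and 7 for IDH1mut against IDH1wt. Genes called in all fell to 1824, 1610 and 336 for R-2HG against empty vector, R-2HG against IDH1wt and IDH1mut against R-2HG. For IDH1mut against R-2HG, the SD filter called 1 class II gene, beside 5046 genes in all. Array weights called 5 class II genes there, beside 7699 genes in all, against 5714 genes in the main fit. With array weights 1388 genes, and with a second quantile normalization 521, were called for IDH1wt against empty vector.

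Where a gene counted only if all its single probe sets passed, 1 class II gene was called for IDH1mut against IDH1wt. Genes called were 4193, 2151, 1398, 3535 and 4590 for R-2HG and IDH1mut against empty vector, IDH1mut against IDH1wt, IDH1mut against R-2HG and R-2HG against IDH1wt.

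With 1 array left out, also from the 9, class II genes called ranged from 1 to 7 for R-2HG against empty vector, 1 to 4 for IDH1mut against empty vector, 0 to 7 for IDH1mut against IDH1wt, 0 to 6 for IDH1mut against R-2HG and 2 to 7 for R-2HG against IDH1wt. Genes called ranged from 2380 to 4107 for IDH1mut against empty vector, 80 to 375 for IDH1wt against empty vector, 1568 to 2977 for IDH1mut against IDH1wt and 3109 to 6503 for IDH1mut against R-2HG. For R-2HG they ranged from 4588 to 7018 against empty vector and from 4869 to 7508 against IDH1wt.

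None of the other values of changed sign passed either. They were those of H2-DMa between IDH1mut and R-2HG (-0.15 after a second quantile normalization and -0.15 with 1459872_x_at, and -0.068 to 0.33 with 1 array left out) and of Ciita (0.029 with array weights, and -0.21 to 0.085 with 1 array left out). Against empty vector with IDH1wt the sign changed for H2-Ab1 (-0.016 with 1425477_x_at) and Ciita (-0.038 to 0.28 with 1 array left out).

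The replicate numbers did not pair the arrays: deviations of same-numbered arrays correlated from -0.152 to 0.124. With the replicate number as a block, class II genes called were 1 for IDH1mut against IDH1wt, 1 for IDH1mut against R-2HG and 6 for R-2HG against empty vector. Genes called in all were 2178, 5346 and 6183 in the same order. Of the single-gene values under all alternatives, 817 kept direction and call, 105 gained a call, 66 lost it and 20 changed sign. The causes of these changes were not tested. Signal over background cannot be judged from centred values.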
